A study of Mus musculus with 12 samples.

Results

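The 10 genes described here encode transcription factors, and 1 coactivator, that set B cell identity or hold cells in the germinal centre (GC) state: Bcl6, Pax5, Ebf1, Pou2af1, Pou2f2, Mef2c, Ikzf1, Ikzf3, Ets1 and Myb. They were chosen by name for what their products are known to do, but with earlier results of these data known. Each was read from its probe set with a single gene symbol. They are 10 of the 19938 genes with such a probe set, and all 10 are among the 11206 genes that were bright enough to be tested. Each had 1 probe set, so no choice between probe sets arose.

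RNA was measured in GC B cells of the mouse spleen on 12 one-colour arrays, 3 in each of 4 groups. All 12 arrays hold SwHEL B cells, which carry a receptor for hen egg lysozyme and the congenic marker CD45.1. They had been given to C57BL/6J hosts, which carry CD45.2, and the antigen was HEL3x, a mutant lysozyme, on sheep red blood cells. On day 10 after immunization, donor cells that were CD45.1+, CD45.2- and IgG1+ with low CD38 were sorted from female mice. The groups LZ_high and LZ_low are light zone (LZ) cells, sorted as CD86 high and CXCR4 low, of high and of low affinity. The groups DZ_high and DZ_low are dark zone (DZ) cells, sorted as CXCR4 high and CD86 low, of high and of low affinity. How affinity was gated, and whether replicate arrays go back to different animals or to pools, is not given in the labels, so p-values here reflect only how these arrays vary, and that variation may be technical. Each group holds 1 array of each of 3 matched sets, which share a suffix in the form of a day in the sample descriptions. Values are log2 expression values, and within a group they are given in the order of sets 1, 2 and 3.

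B cells are committed to their lineage by EBF1 and PAX5, which switch on genes of the B cell receptor and its signalling and hold genes of other lineages silent. On top of that programme, BCL6 represses genes of activation, DNA damage checkpoints and plasma cell differentiation while a B cell stays in the GC. The octamer factors with their coactivator, MEF2C, the Ikaros family, ETS1 and MYB act beside them in B cell development, signalling and the choice between the GC and the plasma cell fate.

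The GC B cell label was set against markers of these cells, of which all 12 measured were at or above their array's median on every array. Their mean level lay between 10.50 and 10.55 on the LZ_high arrays, 10.63 and 10.72 on the LZ_low arrays, 10.42 and 10.46 on the DZ_high arrays and 10.45 and 10.58 on the DZ_low arrays, where array medians were 5.57 to 5.72. Of the sort genes, Cd86 was higher in LZ cells, by 1.13 ± 0.11 (SE; limma, Benjamini-Hochberg adjusted p = 0.00138), while Cxcr4 differed by -0.63 ± 0.18 (adjusted p = 0.271, and 0.0449 with matched set as a block). By affinity, high minus low, Cd86 differed by -0.81 ± 0.15 in DZ cells and -0.14 ± 0.15 in LZ cells. Cxcr4 differed by 0.04 ± 0.26 in DZ cells and -0.30 ± 0.26 in LZ cells. None of these was called. The Cd86 value in DZ cells thus missed the threshold (limma adjusted p with the block 0.666). Its part in the members' affinity differences was not tested. T cells also express Ets1, Ikzf1 and Ikzf3. Of 10 measured T cell markers 1 was at or above the median on all arrays, and Cd3d, Cd3g, Cd4, Cd28, Il7r and Gata3 were too dim to test. The mean level of these 10 ran over 4.87 to 5.25 in LZ_high, 4.92 to 6.02 in LZ_low, 5.16 to 5.24 in DZ_high and 5.02 to 5.51 in DZ_low. Plasma cell markers (8 measured, 5 at or above the median throughout) had mean levels of 7.01 to 7.35 in LZ_high, 6.92 to 7.33 in LZ_low, 7.53 to 7.68 in DZ_high and 7.13 to 7.33 in DZ_low. The part of such cells in the members' values was not tested, and in bulk RNA fewer cells of a type and less RNA per cell cannot be told apart.

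Sequence upstream of the members was searched for short motifs wherever such sequence was available, and expression values played no part in this. The RefSeq table (build GRCm38.p6) holds 13 windows of 250 bases before a transcript start for 8 of the 10 members, Bcl6, Ebf1, Ikzf1, Mef2c, Myb, Pax5, Pou2af1 and Pou2f2. The 4 windows with a match to any of 5 short motifs are printed 5′ to 3′ on the gene's strand, with the matches in capitals.
Bcl6, chr16:23981284-23981533, minus strand: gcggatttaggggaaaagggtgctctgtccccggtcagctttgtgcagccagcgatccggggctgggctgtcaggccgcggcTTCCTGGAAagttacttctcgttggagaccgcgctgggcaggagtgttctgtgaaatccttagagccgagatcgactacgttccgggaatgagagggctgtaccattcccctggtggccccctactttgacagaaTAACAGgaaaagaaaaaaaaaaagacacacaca
Ebf1, chr11:44619978-44620227, plus strand: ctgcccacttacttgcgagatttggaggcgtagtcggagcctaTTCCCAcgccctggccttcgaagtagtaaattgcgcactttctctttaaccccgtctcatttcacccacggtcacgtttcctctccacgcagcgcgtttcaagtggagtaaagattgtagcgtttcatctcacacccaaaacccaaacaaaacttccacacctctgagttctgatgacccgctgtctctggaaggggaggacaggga
Mef2c, chr13:83503784-83504033, plus strand: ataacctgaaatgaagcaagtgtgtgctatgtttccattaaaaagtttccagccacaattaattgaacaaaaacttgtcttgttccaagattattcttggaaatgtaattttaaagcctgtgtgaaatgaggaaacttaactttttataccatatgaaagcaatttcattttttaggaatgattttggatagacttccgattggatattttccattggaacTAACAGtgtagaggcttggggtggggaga
Pou2f2, chr7:25132461-25132710, minus strand: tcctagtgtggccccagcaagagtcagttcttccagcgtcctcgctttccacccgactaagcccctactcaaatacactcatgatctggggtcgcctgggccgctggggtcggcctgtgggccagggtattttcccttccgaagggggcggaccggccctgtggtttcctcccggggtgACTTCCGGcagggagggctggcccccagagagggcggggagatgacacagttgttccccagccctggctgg

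Each motif was searched on both strands. Bcl6, Ebf1 and Mef2c have more than 1 window each. The matches of Bcl6 and Ebf1 lie in the window of their downstream start, and that of Mef2c in its most upstream window. Their other windows hold none of the motifs. Positions are counted from the transcript start of the window printed. The Bcl6 window holds a match to the BCL6 motif TTCCTNGAA, as TTCCTGGAA at -168 to -160 from the start, and 1.31% of 32851 mouse windows hold that motif. It also holds the MYB motif TAACNG, as TAACAG at -33 to -28, as does the Mef2c window at -29 to -24, and 19.8% of windows hold this one. The Ebf1 window holds the Ikaros motif TGGGAA on the other strand at -207 to -202 (21.6% of windows), and the Pou2f2 window holds the ETS motif CCGGAAGT on the other strand at -71 to -64 (2.88% of windows). The Ikaros, ETS and BCL6 motifs all contain GGAA or its complement and so overlap in letters. The letters of the octamer ATGCAAAT (1.60% of windows) are in none of the 13 windows. A match is a description of letters only.

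BCL6 is the zinc finger repressor without which no GC forms. Bcl6 read 10.05, 9.74 and 10.09 on the LZ_high arrays, 10.25, 9.90 and 10.27 on the LZ_low arrays, 9.38, 9.74 and 9.80 on the DZ_high arrays and 10.07, 9.97 and 10.29 on the DZ_low arrays. The 3 DZ_high arrays lay below all DZ_low and all LZ_low arrays and overlapped with the lowest LZ_high array, while the other 3 groups overlapped one another. In DZ cells the difference of high minus low affinity was -0.47 ± 0.18 (SE, n = 3 per group; 95% interval -0.86 to -0.08), which did not pass the test over all genes (limma, Benjamini-Hochberg adjusted p = 1.00, and 0.895 with the block). In LZ cells it was -0.18 ± 0.18, and averaged over both zones -0.32 ± 0.13 (95% interval -0.60 to -0.05; adjusted p = 0.938, and 0.426 with the block), with the high affinity array lower in 6 of 6 matched pairs. Within sets 1, 2 and 3 that difference was -0.20, -0.16 and -0.18 in LZ cells and -0.68, -0.22 and -0.50 in DZ cells. Between the zones Bcl6 differed by 0.18 ± 0.13 (LZ minus DZ, 95% interval -0.10 to 0.45; adjusted p = 0.983). It was 0.32 ± 0.18 at high and 0.03 ± 0.18 at low affinity. Without DZ_high of set 1 the mean difference was 0.11 and that at high affinity 0.19, and with array weights 0.057 and 0.10. The interaction of zone and affinity was 0.29 ± 0.25 (adjusted p = 1.00).

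PAX5 keeps B cells committed by activating B cell genes and repressing others. Pax5 read 10.44, 10.28 and 9.49 on the LZ_high arrays, 10.47, 10.52 and 9.46 on the LZ_low arrays, 10.00, 10.17 and 9.83 on the DZ_high arrays and 10.51, 10.52 and 10.07 on the DZ_low arrays. The array of set 3 was the lowest in every group, and the 4 arrays of that set ran over 9.46 to 10.07 against 10.00 to 10.52 for the other 8, so all 4 groups overlapped. Its zone difference was -0.07 ± 0.22 (95% interval -0.56 to 0.41; limma adjusted p = 0.999). At high minus low affinity it stood at -0.08 ± 0.31 in LZ cells and -0.37 ± 0.31 in DZ cells (95% interval -1.05 to 0.32), where the high affinity array was the lower one in 3 of 3 sets. With set as a block the SE of the zone difference was 0.13 in place of 0.22, and the adjusted p was 0.929.

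EBF1 acts before and with PAX5 at the start of the B lineage. Ebf1 read 10.03, 9.67 and 9.38 on the LZ_high arrays, 9.77, 9.93 and 9.08 on the LZ_low arrays, 9.06, 9.33 and 8.71 on the DZ_high arrays and 9.50, 9.56 and 9.20 on the DZ_low arrays. All 3 LZ_high arrays lay above all 3 DZ_high arrays, whereas LZ_low and DZ_low overlapped and set 3 was the lowest array of each group. Ebf1 had the largest zone difference of the 10 genes, 0.42 ± 0.18 (95% interval 0.02 to 0.81; limma adjusted p = 0.656, and 0.155 with the block), with LZ higher in 5 of 6 pairs. At high affinity this difference was 0.66 ± 0.26 (95% interval 0.10 to 1.22, limma adjusted p = 0.944). With the block its SE was 0.16 and its adjusted p 0.266. At low affinity it was 0.17 ± 0.26 (adjusted p = 0.999, and 0.942 with the block). Within sets 1, 2 and 3 it was 0.97, 0.33 and 0.67 at high affinity and 0.27, 0.37 and -0.12 at low affinity. The difference between these zone differences, the interaction, was 0.48 ± 0.36 (95% interval -0.31 to 1.28; adjusted p = 1.00). Its affinity difference, high minus low, was 0.10 ± 0.26 in LZ cells and -0.38 ± 0.26 in DZ cells.

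**Figure D1:**
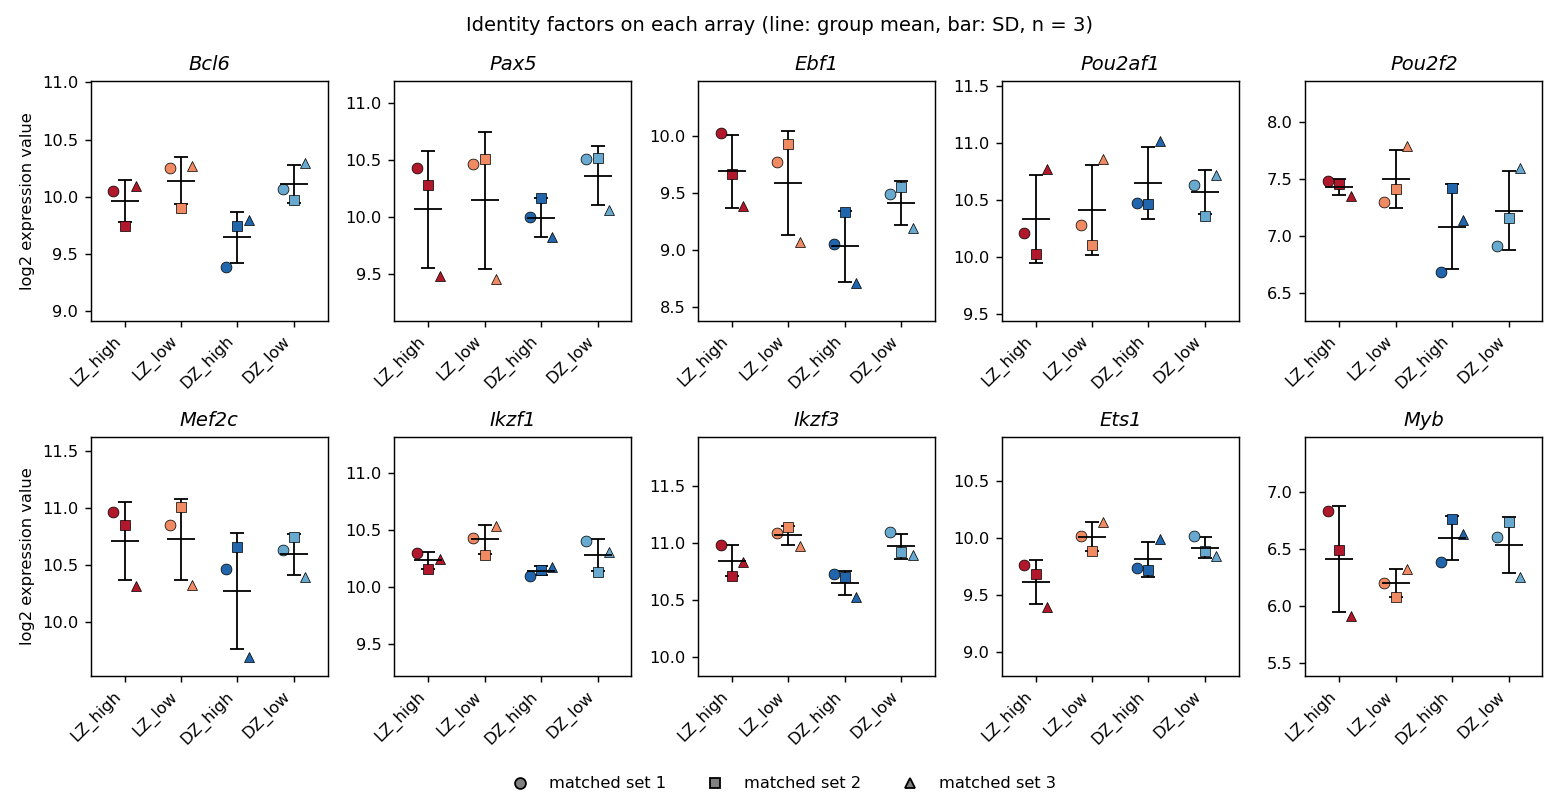
Log2 expression values of the 10 genes on each of 12 arrays, 1 panel per gene, with the groups LZ_high, LZ_low, DZ_high and DZ_low along the x axis, the matched set as the marker shape, and the group mean with its SD (n = 3). All panels span the same number of log2 units; set 3 (triangles) is the lowest array of every group for Pax5, Ebf1 and Mef2c and the highest of every group for Pou2af1.

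POU2AF1 (also OBF-1 or OCA-B) is the B cell coactivator that octamer factors recruit, and GCs fail to form without it. Pou2af1 read 10.21, 10.03 and 10.77 on the LZ_high arrays, 10.28, 10.11 and 10.86 on the LZ_low arrays, 10.48, 10.47 and 11.02 on the DZ_high arrays and 10.63, 10.36 and 10.73 on the DZ_low arrays. The array of set 3 was the highest in every group, at 10.73 to 11.02 against 10.03 to 10.63 for the other 8 arrays, and all groups overlapped. It differed by -0.23 ± 0.18 between the zones (LZ minus DZ, 95% interval -0.63 to 0.16; limma adjusted p = 0.995, and 0.426 with the block), with LZ lower in 5 of 6 pairs. High minus low affinity was -0.08 ± 0.26 in LZ cells and 0.08 ± 0.26 in DZ cells.

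POU2F2 is OCT2, the octamer factor of B cells. Pou2f2 read 7.48, 7.46 and 7.35 on the LZ_high arrays, 7.30, 7.41 and 7.79 on the LZ_low arrays, 6.68, 7.42 and 7.14 on the DZ_high arrays and 6.91, 7.16 and 7.59 on the DZ_low arrays. LZ was higher in each of the 6 pairs of a set and affinity, yet the groups overlapped, since DZ_high in set 2 and DZ_low in set 3 reached the LZ arrays. The zone difference was 0.31 ± 0.16 (95% interval -0.04 to 0.67; limma adjusted p = 0.806, and 0.443 with the block). It was 0.35 ± 0.23 at high affinity and 0.28 ± 0.23 at low affinity, with an interaction of 0.07 ± 0.32 (95% interval -0.64 to 0.77). Within sets 1, 2 and 3 it was 0.80, 0.03 and 0.21 at high affinity and 0.39, 0.26 and 0.20 at low affinity, and without DZ_high of set 1 the value at high affinity was 0.15. The affinity difference was -0.07 ± 0.23 in LZ cells and -0.14 ± 0.23 in DZ cells.

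MEF2C is a MADS box factor that acts downstream of B cell receptor signals in proliferation and GC formation. Mef2c read 10.96, 10.85 and 10.32 on the LZ_high arrays, 10.85, 11.003 and 10.33 on the LZ_low arrays, 10.46, 10.66 and 9.69 on the DZ_high arrays and 10.63, 10.75 and 10.40 on the DZ_low arrays. Set 3 was again the lowest array of each group, at 9.69 to 10.40 against 10.46 to 11.003 for the other 8 arrays, and the groups overlapped. Between the zones it differed by 0.29 ± 0.20 (95% interval -0.14 to 0.72; limma adjusted p = 0.967, and 0.345 with the block, where the SE was 0.11), with LZ higher in 5 of 6 pairs. It was 0.44 ± 0.28 at high affinity, where LZ was higher in 3 of 3 sets by 0.50, 0.19 and 0.63, and 0.13 ± 0.28 at low affinity. For affinity it was -0.02 ± 0.28 in LZ cells and -0.32 ± 0.28 in DZ cells.

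IKZF1 (Ikaros) and IKZF3 (Aiolos) are related zinc finger factors of lymphocytes, and Aiolos takes part in tuning the response of mature B cells. Ikzf1 read 10.30, 10.15 and 10.25 on the LZ_high arrays, 10.43, 10.28 and 10.54 on the LZ_low arrays, 10.10, 10.15 and 10.17 on the DZ_high arrays and 10.41, 10.13 and 10.31 on the DZ_low arrays. Its whole range over the arrays was 0.44, and DZ_high overlapped with the lowest arrays of LZ_high and DZ_low, as did LZ_high with the lowest LZ_low array. LZ was higher in 6 of 6 pairs, by 0.11 ± 0.09 (95% interval -0.09 to 0.32; limma adjusted p = 0.999), and high minus low affinity was -0.16 ± 0.09 over both zones (95% interval -0.37 to 0.05; adjusted p = 0.963).

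Ikzf3 read 10.98, 10.72 and 10.84 on the LZ_high arrays, 11.09, 11.14 and 10.98 on the LZ_low arrays, 10.73, 10.70 and 10.53 on the DZ_high arrays and 11.10, 10.92 and 10.90 on the DZ_low arrays. DZ_high was the lowest group and lay below every DZ_low array, while in LZ cells the highest LZ_high array exceeded the lowest LZ_low array. High minus low affinity was -0.32 ± 0.14 in DZ cells (95% interval -0.62 to -0.02; limma adjusted p = 1.00) and -0.22 ± 0.14 in LZ cells (95% interval -0.52 to 0.08). Over both zones it was -0.27 ± 0.10 (95% interval -0.48 to -0.06; adjusted p = 0.916, and 0.42 with the block), with the high affinity array lower in 6 of 6 pairs. Within sets 1, 2 and 3 the difference was -0.10, -0.42 and -0.14 in LZ cells and -0.37, -0.22 and -0.37 in DZ cells. The zone difference was 0.14 ± 0.10 (adjusted p = 0.962).

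ETS1 restrains the passage of B cells to plasma cells. Ets1 read 9.76, 9.68 and 9.39 on the LZ_high arrays, 10.01, 9.88 and 10.13 on the LZ_low arrays, 9.73, 9.72 and 9.99 on the DZ_high arrays and 10.02, 9.89 and 9.83 on the DZ_low arrays. All 3 LZ_high arrays lay below all 3 LZ_low arrays, and LZ_high in set 3 was the lowest of all, while DZ_high and DZ_low overlapped. High minus low affinity was -0.40 ± 0.15 in LZ cells (95% interval -0.73 to -0.06; limma adjusted p = 0.999, and 0.612 with the block) and -0.10 ± 0.15 in DZ cells. In LZ cells it was -0.25, -0.21 and -0.74 within sets 1, 2 and 3, so set 3 carried the largest part, and without the LZ_high array of that set it was -0.29. The interaction was -0.30 ± 0.22 (95% interval -0.77 to 0.18; adjusted p = 1.00), and without set 3 it was 0.0024, where high minus low affinity in LZ cells was -0.23. Over both zones the difference was -0.25 ± 0.11 (95% interval -0.49 to -0.01; adjusted p = 0.944, and 0.522 with the block), and between the zones -0.05 ± 0.11.

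MYB is needed in blood and early B cell progenitors, and its relative Mybl1 is a marker of GC B cells. Myb read 6.84, 6.50 and 5.92 on the LZ_high arrays, 6.21, 6.08 and 6.33 on the LZ_low arrays, 6.39, 6.77 and 6.63 on the DZ_high arrays and 6.61, 6.74 and 6.26 on the DZ_low arrays. It was the only member with fewer than 3 arrays at or above the 75th percentile of their array, the other 9 having passed that stricter filter. LZ_high held both the highest value of the gene, in set 1, and its lowest, in set 3, so that group overlapped with all others. LZ minus DZ was -0.25 ± 0.16 (95% interval -0.61 to 0.10; limma adjusted p = 0.942), and high minus low affinity was 0.21 ± 0.23 in LZ cells and 0.06 ± 0.23 in DZ cells.

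Taken over the 10 genes, no member passed the test between LZ and DZ, where 0.419% of all tested genes did (47 of 11206, and 1.2% with the block). The count at an unadjusted p below 0.05 was 1 member without and 4 members with the block (791 and 1211 of all genes). With the block these were Ebf1, Pou2af1, Pou2f2 and Mef2c. At high affinity 0 members were called against 0.0357% of genes (0.0803% with the block), and at low affinity 0 members against 0.0357% (0.223% with the block). LZ exceeded DZ in 6 of the 10 by their mean difference, the members' median difference was 0.13 and the median of all tested genes was -0.0038. Pou2f2 and Ikzf1 were higher in LZ in all 6 pairs, 2 of 10 members, where 4.54% of tested genes were. No member had all 6 LZ arrays apart from all 6 DZ arrays (0.991% of genes did, in either direction). At high affinity 6 members were higher in LZ in all 3 sets (Bcl6, Ebf1, Pou2f2, Mef2c, Ikzf1 and Ikzf3), against 13.9% of genes, and Pou2af1 was lower in all 3, against 11.5%. In set 2 that difference was only 0.001 for Bcl6, 0.0038 for Ikzf1 and 0.014 for Ikzf3. Members share the same arrays, so such counts are not counts of independent events. Ebf1 was the 1 member without overlap there, against 3.72% of genes. At low affinity Pou2f2 and Ikzf1 were higher in all 3 sets (17.4% of genes) and Pax5 lower (16%).

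Between high and low affinity, limma called 0 members and 0 genes, which is 0% in LZ cells, in DZ cells and over both zones, without and with the block. At an unadjusted p below 0.05 the count was 1 member and 466 genes in LZ cells, 2 members and 247 genes in DZ cells, and 3 members and 588 genes over both zones. With the block these were 1 and 891 in LZ cells, 3 and 597 in DZ cells, and 3 and 1059 over both zones. The interaction had 0 calls too (0%), with 0 members and 177 genes at an unadjusted p below 0.05 (0 and 408 with the block). Of the 10 members, 8 had a lower mean at high affinity in LZ cells (all but Ebf1 and Myb), where 50.3% of tested genes did. In DZ cells 8 did (all but Pou2af1 and Myb), beside 49.6% of tested genes. The members' median difference was -0.08 in LZ cells and -0.23 in DZ cells, where the medians of all tested genes were -0.0021 and 0.0017. In DZ cells 5 members were lower at high affinity in all 3 sets (Bcl6, Pax5, Ebf1, Mef2c and Ikzf3), against 12.7% of genes, and in LZ cells also 5 (Bcl6, Pou2af1, Ikzf1, Ikzf3 and Ets1), against 16.7%. Without overlap were Bcl6 and Ikzf3 in DZ cells (3.86% of genes) and Ets1 in LZ cells (4.49%). Over both zones Bcl6 and Ikzf3 were lower in all 6 pairs, where 3.95% of genes were, and no member had all 6 high affinity arrays apart from all 6 low affinity arrays (0.268% of genes did, in either direction).

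**Figure D2:**
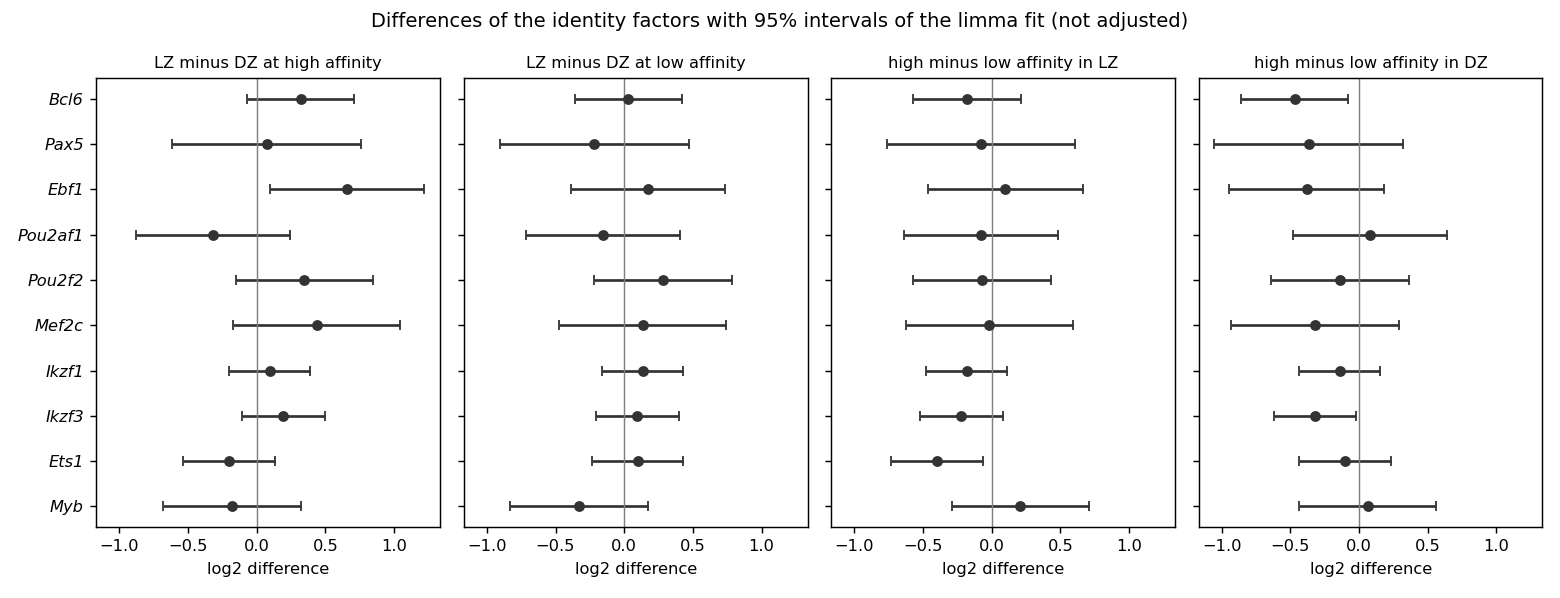
Log2 differences of the 10 genes with their 95% intervals from the limma fit, not adjusted over genes, in 4 panels: LZ minus DZ at high affinity, LZ minus DZ at low affinity, and the affinity difference (high minus low) in LZ cells and in DZ cells (3 arrays per group). The intervals that leave out 0 are those of Ebf1 in the first panel, Ets1 in the third, and Bcl6 and Ikzf3 in the fourth.

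In the fit without the block, the intervals of the 10 genes together reached from -0.88 to 1.22 for LZ minus DZ at high affinity and from -0.90 to 0.78 at low affinity. For the affinity difference they reached from -0.77 to 0.71 in LZ cells and from -1.05 to 0.64 in DZ cells. With matched set as a block these limits were -0.67 to 1.02 and -0.82 to 0.71 for the zones, and -0.74 to 0.70 and -0.81 to 0.55 for affinity. A difference that missed the threshold is not shown to be absent within those limits.

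The spread of the genes lay with different factors. Of the sum of squares over the 12 arrays, matched set held 73.2% for Pou2af1, 68.8% for Pax5, 63.4% for Mef2c and 42.7% for Ebf1, the largest share in each of these 4. Affinity held the largest share in another 4, at 56.7% for Ikzf3, 43.2% for Ets1, 40.2% for Bcl6 and 38.4% for Ikzf1. Zone held the largest share in none, reaching 31.7% for Ebf1 and 29.9% for Pou2f2, and the rest, which goes with none of zone, affinity, their interaction and set, led in Pou2f2 (36.6%) and Myb (56.0%). The median member had 16.3% for zone, 7.5% for affinity, 26.3% for matched set and 18.2% for the rest, where the median tested gene had 4.4%, 5.3%, 28.0% and 41.4%. Matched set and the rest have more degrees of freedom than zone, affinity or interaction, so these shares are not on an equal footing. All members but Myb passed the stricter filter, which 5775 of 11206 tested genes passed. The part of brightness in the members' shares was not tested. On the first principal component of all tested genes (40.1% of the variance), the 4 arrays of set 3 also stood apart, at 12.5 to 52.9 against -26.4 to -6.7. The T cell marker list averaged 4.99, 5.13 and 5.51 in sets 1, 2 and 3, the macrophage list 5.02, 5.23 and 5.34, and the granulocyte list 5.25, 6.45 and 5.95. Their part in the set differences was not tested.

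**Figure D3:**
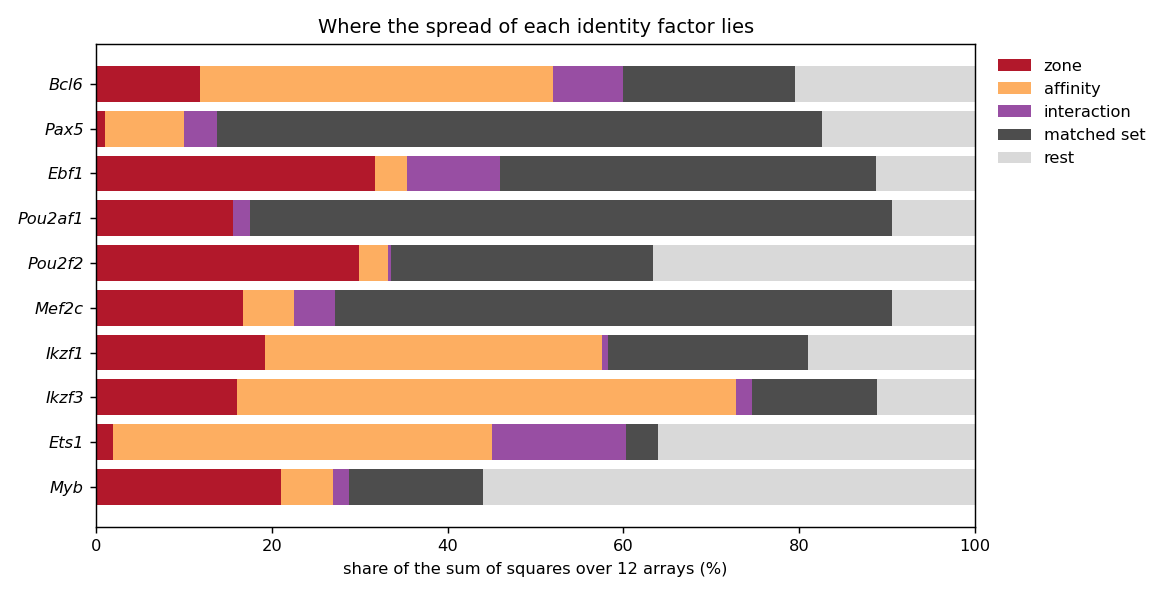
Share of each gene's sum of squares over 12 arrays, in percent, that lies with zone, affinity, their interaction, matched set and the rest; each bar is 1 gene and fills the whole axis. Matched set is the widest segment for Pax5, Ebf1, Pou2af1 and Mef2c, and affinity for Bcl6, Ikzf1, Ikzf3 and Ets1.

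Once the mean of each matched set was removed, Ebf1 and Mef2c were the pair of members that varied most alike, with a Pearson r of 0.88 over the 12 arrays (0.92 as deposited). Bcl6 varied with both Ikaros genes, at 0.82 with Ikzf3 (0.59 as deposited) and 0.80 with Ikzf1 (0.80), and Ikzf1 with Ikzf3 at 0.81 (0.68). Pou2f2 and Mef2c had 0.78, which was 0.13 in the deposited values. Bcl6 had 0.73 with Mef2c and 0.72 with Ebf1 (0.05 and 0.21 as deposited), and Ebf1 had 0.69 with Pou2f2 (0.19). Pou2af1 ran against Ebf1 and Mef2c, at -0.75 with each (-0.84 and -0.91 as deposited). With its partner Pou2f2 it had -0.60, which was -0.018 as deposited, and with Bcl6 and Ikzf1 -0.32 and -0.20, which were 0.23 and 0.21 as deposited. Of the 45 pairs 30 were positive and 13 above 0.6, with a median of 0.33. These values describe 12 arrays that share groups and matched sets, and no test was made of them.

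**Figure D4:**
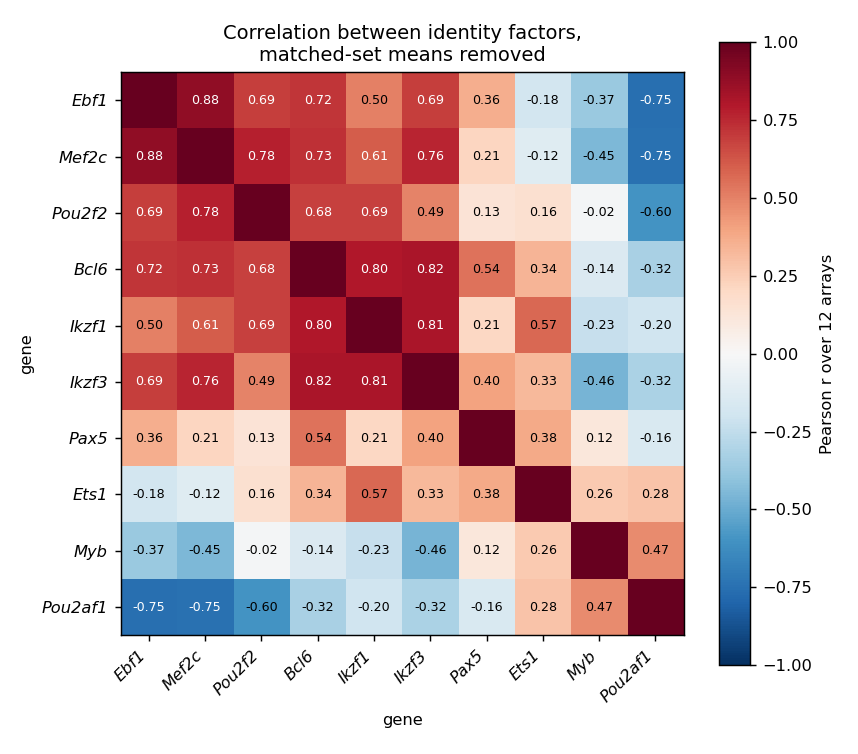
Pearson correlation between each pair of the 10 genes over 12 arrays, after the mean of each matched set was removed. Ebf1, Mef2c, Pou2f2, Bcl6, Ikzf1 and Ikzf3 form a block of positive values, and Pou2af1 is negative with each of them; in the deposited values its sign is positive with Bcl6 and Ikzf1.

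Among all tested, named protein coding genes, those most like each member were found the same way, over 12 arrays with set means removed. They were picked for the highest r among all these genes, so a high r can come from the search alone. No test was made of these values, and they do not show that a gene varies with a member beyond these arrays. Bcl6 was closest to Nrbf2 (r = 0.97, and 0.68 as deposited) and Ptdss1 (0.95 and 0.58), and Pax5 to Tab2 (0.95 and 0.95) and Fam149b (0.93 and 0.94). Ebf1 was closest to Cd69 (0.96 and 0.69) and Jak2 (0.94 and 0.95), and Mef2c to L3mbtl3 (0.98 and 0.58) and Ptprc, which encodes CD45 (0.98 and 0.97). Pou2af1 was closest to Tifa (0.95 and 0.81) and Gcsam, a GC B cell gene (0.94 and 0.08), and Pou2f2 to Morn1 (0.96 and 0.76) and Mdn1 (0.93 and 0.37). The nearest genes to Ikzf1 were Vps4b (0.97 and 0.32) and Asap1 (0.97 and 0.85), and to Ikzf3 Mbnl2 (0.93 and 0.63) and Rgs2 (0.92 and 0.80). Ets1 was nearest to Ripor2 (0.95 and 0.92) and Peli1 (0.95 and 0.61), and Myb to Cep70 (0.92 and 0.77) and Skp2 (0.86 and 0.82).

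The targets, partners and relatives of the members were followed in 7 lists of 117 genes, of which 107 were measured and 90 tested. The lists were chosen with earlier results of these data known. Their counts are therefore descriptions, and the shares of all tested genes given beside them make no test of a list. Between LZ and DZ 5 of these were called higher and 2 lower, and with the block 9 higher and 2 lower. Genes that PAX5 or EBF1 activates had 3 of 14 tested members called higher in LZ and none lower, where 0.419% of all tested genes were called in either direction. The list's median difference was 0.09, beside -0.0038 for all tested genes, which is also the value to set beside the other list medians for LZ minus DZ. Fcer2a (the IgE receptor CD23) was higher by 1.70 ± 0.13 (limma adjusted p = 0.000353), Cd72 (an inhibitory co-receptor) by 1.30 ± 0.20 (adjusted p = 0.0234) and Cr2 (complement receptor CD21) by 1.02 ± 0.18 (adjusted p = 0.0427). Cd22, another inhibitory co-receptor, differed by 0.51 ± 0.12 (adjusted p = 0.160, and 0.0443 with the block). Of 12 genes that PAX5 represses only 6 were bright enough to test, with 1 called lower, none higher and a median of -0.30. The 1 was Jchain, the joining chain of secreted antibodies, at -0.97 ± 0.17 (limma adjusted p = 0.0427). Sdc1 (CD138, of plasma cells) was at -0.26 ± 0.13, with group means of 5.47 to 5.88, near the array medians. Jchain, Sdc1 and Xbp1, all among the 6, are also in the plasma cell marker list whose levels are given above.

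Genes that BCL6 represses had 1 of 16 tested members called higher in LZ and none lower (0.419% of all tested genes called), and 13 of the 16 had a positive difference, where 49.0% of all tested genes did, with a median of 0.42. The 1 was Batf, an AP-1 family factor needed for class switching, at 0.81 ± 0.14 (adjusted p = 0.0365), and the activation marker Cd69 was at 0.96 ± 0.23 (adjusted p = 0.132). For Cd69 the zone difference was 1.84 ± 0.32 at high affinity (limma adjusted p = 0.0986, and 0.0797 with the block) and 0.08 ± 0.32 at low affinity. Neither was called, and nor was their interaction, at 1.76 ± 0.45. The Cd69 mean in DZ_high was 5.69, near the array medians. Bcl6 itself, over both affinities, was at 0.18 ± 0.13. Of 16 co-repressors and partners of BCL6 none was called without the block (median 0.09), and Bcl11a differed by 0.54 ± 0.10 (adjusted p = 0.0561, and 0.0405 with the block) and Tbl1x by 0.43 ± 0.16. Of 5 octamer factor targets and partners none was called without the block (median 0.24), and the scavenger receptor gene Cd36 differed by 0.76 ± 0.16 (adjusted p = 0.0754, and 0.0338 with the block) and Cxcr5, the receptor that draws B cells to follicles, by 0.78 ± 0.31. Of 18 family relatives of the members 0 were called (median 0.03), with Fli1 at -0.17 ± 0.10 and Etv6 at 0.37 ± 0.25. Of 23 other B cell transcription factors Hhex was higher in LZ, by 2.04 ± 0.21 (adjusted p = 0.0018), and Foxp1 lower, at -0.58 ± 0.11 (adjusted p = 0.0453), with a list median of 0.06. Lmo2, a GC B cell factor, differed by 0.67 ± 0.15 (adjusted p = 0.0994, and 0.0376 with the block), and Bcl11a is also in this list.

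**Figure D5:**
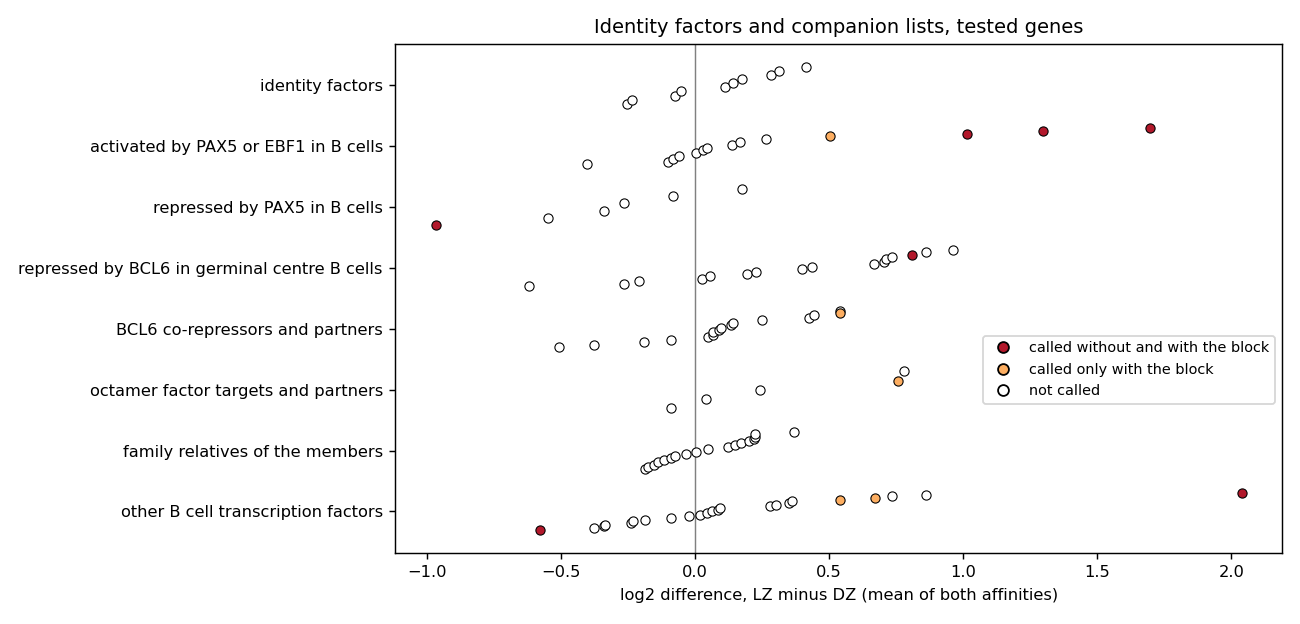
Log2 differences, LZ minus DZ over both affinities, of each tested gene of the 10 identity factors and of 7 lists of their targets, partners and relatives; 1 point per gene, dark red where the limma test called it without and with the block and amber where only with the block. No identity factor is coloured; Hhex, Fcer2a, Cd72, Cr2 and Batf are dark red on the LZ side, and Jchain and Foxp1 on the DZ side.

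Fcer2a and Hhex were called without any 1 of the 12 arrays. Foxp1 was called in none of these 12 fits, at adjusted p-values of 0.0651 to 0.129. Cr2 was called only without LZ_high of set 3 or DZ_high of set 2, and Jchain only without LZ_high or LZ_low of set 3, both with adjusted p-values of 0.0263 to 0.126 over the 12 fits. Batf was called only without LZ_high of set 2, LZ_high of set 3 or DZ_high of set 3 (0.0319 to 0.106), and Cd72 only without LZ_high of set 3, any 1 of the DZ_high arrays or DZ_low of set 3 (0.0193 to 0.0752). Bcl11a and Cd36, not called on all 12 arrays, were called without DZ_high of set 3 (0.0406 and 0.0398).

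Between high and low affinity 0 genes of the 7 lists were called in either zone. In LZ cells the list of genes activated by PAX5 or EBF1 had 13 of 14 lower at high affinity, with a median of -0.33, and in DZ cells 11 of 14 with a median of -0.14. Of all tested genes 50.3% were lower at high affinity in LZ cells and 49.6% in DZ cells, with medians of -0.0021 and 0.0017. Fcer2a was at -0.80 ± 0.18 and Fcrla, an Fc receptor-like gene of GC B cells, at -0.49 ± 0.16 in LZ cells. The genes PAX5 represses had 5 of 6 higher at high affinity in each zone, with medians of 0.16 in LZ cells and 0.31 in DZ cells. Among them Jchain was at 0.41 ± 0.25 in LZ cells, while Flt3 was at -0.48 ± 0.29. Since Jchain, Sdc1 and Xbp1 are also plasma cell markers, this count cannot be told apart from one of plasma cell transcripts. In LZ cells the medians of the other lists were 0.13 for BCL6-repressed genes (Chek1 0.72 ± 0.23 and Batf 0.56 ± 0.20) and -0.16 for BCL6 partners (Rcor1 -0.90 ± 0.44 and Mta3 -0.49 ± 0.24). They were -0.14 for octamer targets (Btk -0.24 ± 0.21 and Cd36 -0.15 ± 0.22), -0.14 for relatives (Fli1 -0.24 ± 0.14 and Ikzf5 0.63 ± 0.38) and -0.22 for other B cell factors (Hhex -1.15 ± 0.30 and Bach2 -0.86 ± 0.31). Each of the genes named here had a limma adjusted p of 0.999 in LZ cells. With the block these ran from 0.464 for Fcer2a to 0.885 for Cd36. Without LZ_high of set 3, Rcor1 was at -0.22, Ikzf5 at 0.12, Bach2 at -0.47, Batf at 0.36 and Btk at -0.12, and Ikzf5 turned to -0.038 with array weights. Without LZ_low of set 3, Cd36 was at -0.045, Fli1 at -0.14 and Jchain at 0.62, and without LZ_low of set 2 Jchain was at 0.18. The members and these lists were read on the same arrays, and no test was made between them.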

How the data were processed

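Expression was measured on 12 one-colour arrays, and the deposited values are log2 expression values per probe set, 1 column per array. The submitters' processing notes name RMA and the build mm8, and other steps are not given in the sources used here. The log base was read from the range, 1.99 to 13.74. Of 28853 probe sets, 21789 had 1 gene symbol in the platform annotation, 1621 several and 5443 none. Only the first kind was used, and for the 999 of 19938 genes with several the brightest probe set on average was taken. Genes were tested when at least 3 arrays were at or above their array's median (percentile 50), which left 11206 and set aside 8732 as too dim. No detection calls were used, and the number of arrays limits the precision.

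A single limma model (limma 3.58.1 under R 4.3.3; lmFit, contrasts.fit and eBayes, two-sided) estimated the 4 group means from the 12 arrays, with Benjamini-Hochberg adjustment over all tested genes and a call below 0.05. The script was tested on simulated data. The 10 members, the lists and the rule for named genes were chosen with earlier results of these data known. That rule named the members, the sort genes, called list genes, the 2 list genes with the smallest p for LZ minus DZ and for affinity in LZ cells, and the 2 genes most alike each member.

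The suffix in the descriptions has the form of a day, was read as one, and so pairs the arrays across groups. The labels do not say what it marks. With group means removed, 17 of 18 pairs of the same set correlated above 0.1 across genes, with a median of 0.41 and a lowest value of -0.071. For 11 of 12 arrays the nearest array was of its own set. The fit without the block is reported first, with blocked values beside it for some results but not for all. Other alternatives were a random block, array weights, other filters and scalings, trend and robust eBayes, averaged probe sets per gene, only the groups compared, and fits without single arrays or without set 3. No 2 arrays held identical values.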

Additional observations from a re-analysis of the deposited data

How the results depend on the processing

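No member was called in any fit that was run, over 25 alternatives and 7 contrasts. Only the groups compared was run for the 4 contrasts of 2 groups, and Myb has no value under the stricter filter. In these fits the lowest adjusted p of a member in limma was 0.0663, for Ikzf3 and affinity over both zones under array weights. Matched set as a replicate block changed no call of a member, the lowest blocked adjusted p being 0.155 for Ebf1 in LZ minus DZ. Of 70 member differences, 22 changed sign without some single array (44 of 840 fits), as did 40 of 873 values under the other alternatives. None of these passed the threshold, their largest size was 0.21 on the log2 scale, and the cause was not tested. In the alternatives run for them, LZ minus DZ kept its sign for Bcl6, Ebf1, Pou2af1, Pou2f2, Mef2c, Ikzf1, Ikzf3 and Myb, though not always its size, and affinity over both zones kept its sign for Bcl6, Pax5, Ebf1, Mef2c, Ikzf1, Ikzf3, Ets1 and Myb.

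Here affinity stands for high minus low affinity. Array weights turned the sign of log2 differences in LZ minus DZ, Pax5 to 0.068, and in affinity in LZ cells, Ebf1 to -0.069, Pou2f2 to 0.052 and Ikzf5 to -0.038, and in affinity in DZ cells, Pou2af1 to -0.075 and Pou2f2 to 0.13, and in affinity over both zones, Pou2af1 to -0.15 and Pou2f2 to 0.093, and in the interaction, Ikzf3 to -0.022 and Pou2f2 to -0.083. Leaving out set 3, with the replicate block or without it, turned the sign in LZ minus DZ, Pax5 to 0.13, and in LZ minus DZ at high affinity, Myb to 0.088, and in LZ minus DZ at low affinity, Ets1 to -0.0043, and in affinity in LZ cells, Ebf1 to -0.0035 and Pou2f2 to 0.11, and in affinity in DZ cells, Myb to -0.094, Pou2af1 to -0.024 and Pou2f2 to 0.021, and in affinity over both zones, Pou2af1 to -0.049 and Pou2f2 to 0.067, and in the interaction, Ets1 to 0.0024 and Ikzf1 to 0.015. The fit without the LZ_high array of set 3, with the replicate block, turned it in LZ minus DZ, Ets1 to 0.022, and in LZ minus DZ at high affinity, Myb to 0.050, and in affinity in LZ cells, Pax5 to 0.020, Pou2f2 to 0.089, Cd36 to 0.0067 and Ikzf5 to -0.016, and in affinity over both zones, Pou2af1 to -0.028. Pou2af1 in affinity over both zones, 0.00047 as reported, was -0.025 under array median centring and -0.036 under a new quantile normalization. The ranges over the 12 fits without 1 array follow for the differences that turned in any of them. For LZ minus DZ these were Ets1 at -0.090 to 0.0034 and Pax5 at -0.16 to 0.099. For LZ minus DZ at high affinity these were Myb at -0.39 to 0.069 and Pax5 at -0.11 to 0.36. For LZ minus DZ at low affinity these were Bcl6 at -0.041 to 0.15, Mef2c at -0.0047 to 0.33, Pax5 at -0.40 to 0.13 and Pou2af1 at -0.38 to 0.00015. For affinity in LZ cells these were Ebf1 at -0.16 to 0.27, Mef2c at -0.22 to 0.18, Pax5 at -0.42 to 0.21, Pou2af1 at -0.30 to 0.14 and Pou2f2 at -0.17 to 0.072. For affinity in DZ cells these were Myb at -0.076 to 0.17, Pou2af1 at -0.10 to 0.17 and Pou2f2 at -0.31 to 0.061. For affinity over both zones these were Pou2af1 at -0.11 to 0.11. For the interaction these were Ikzf1 at -0.11 to 0.034, Myb at -0.061 to 0.40, Pax5 at -0.056 to 0.58, Pou2af1 at -0.38 to 0.060 and Pou2f2 at -0.13 to 0.24.

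Of all tested genes, 47 were called for LZ minus DZ, against 135 with the replicate block, 110 with a random block, 327 with array weights, 80 after quantile normalization, 28 after median centring, 12 to 67 without 1 array, 87 without set 3 (95 when blocked) and 167 in the blocked fit without the LZ_high array of that set. With the replicate block, the random block and array weights, the 4 calls at high affinity became 9, 12 and 146, and the 4 at low affinity 25, 18 and 40. Each became 0 with only the groups compared. With array weights, 103 genes were called for affinity in LZ cells and 52 over both zones, where the fit as reported called 0, and Fcer2a and Hhex were among those in LZ cells. A random block and quantile normalization each called 1 gene for affinity over both zones. Without 1 array, the calls numbered 2 to 5 at high and 0 to 5 at low affinity, and 1 gene was called for affinity in DZ cells without DZ_low of set 1.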
